A study of Mus musculus with 4 samples.

Results

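Heat shock genes and unfolded protein response genes were followed in cultured mouse microglia as a list of 41 named genes, taken by gene symbol from the 54532 Ensembl genes present in both count tables. The rule uses gene names of known function and no measured value, though members were chosen with earlier results of these data known. The list was ordered here by role into 15 cytosolic and mitochondrial chaperone genes (with Hsf1), 15 endoplasmic reticulum (ER) chaperone genes (with Herpud1) and 11 stress sensors and effectors. All 41 code for protein and passed the filter on low counts (a sum of 10 or more across the 4 libraries), which left 13811 protein-coding genes for testing. The study asked how epigallocatechin gallate (EGCG), a green tea flavan-3-ol, alters the transcriptome of microglia, the resident macrophages of the brain.

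The EGCG group was treated with 1 µM EGCG for 24 h and the Vehicle group with the same amount of the solvent DMSO for 24 h, with 2 libraries in each group. Both groups were primary microglia of the outbred CD1 strain, prepared from the cortex of male pups aged 1 to 3 days. The cells had grown for weeks in mixed glial cultures fed with serum and GM-CSF, had been freed of the astrocyte layer with trypsin, and were then held in serum-free medium containing IL-34, TGFβ2, GM-CSF and cholesterol. Both arms therefore shared those growth factors and the enzyme step, and no untreated cells without solvent were analysed here. Libraries are named by group and replicate number (Vehicle 1, EGCG 1, Vehicle 2, EGCG 2). The labels call the replicates biological, and how many pups stood behind each was not given in the sources used here, so p-values measure the spread between these libraries.

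Cells answer misfolded protein in the cytosol through the transcription factor HSF1, which switches on chaperones of the HSP70, HSP40 and HSP90 families. Misfolded protein in the ER is sensed by IRE1 (gene Ern1), PERK (gene Eif2ak3) and ATF6, which act through the factors XBP1, ATF4 and cleaved ATF6 to raise ER chaperones, slow translation and, when stress persists, induce Ddit3 (CHOP). Much of this control lies in splicing, translation and protein cleavage, which counts per gene do not show, and the spliced form of Xbp1 was not counted apart from the unspliced form.

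Total counts were 33805071 in Vehicle 1, 34300679 in EGCG 1, 36307930 in Vehicle 2 and 54970300 in EGCG 2. The 41 genes took 0.913%, 0.890%, 0.897% and 0.924% of the counts on tested genes in those libraries. The deepest library, EGCG 2, thus gave the most precise values. Levels are given as CPM, the count scaled to a common library size by the TMM method, and levels of different genes are compared only as CPM per kilobase of gene length (RPKM). Of the microglial markers, 8 of 8 were above 3 counts in every library, with a summed level of 4296 CPM in Vehicle 1, 4658 in EGCG 1, 5027 in Vehicle 2 and 5236 in EGCG 2.

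Markers of other cells were not equal across libraries. The 5 stromal markers summed to 417.7 CPM in Vehicle 1, 0.468 in EGCG 1, 156 in Vehicle 2 and 173 in EGCG 2, and only 2 of 5 exceeded 3 counts in EGCG 1. By RPKM the highest of them was Col1a1 in Vehicle 1 and Col3a1 in the other libraries. The 4 neuronal markers summed to 17.5, 16.7, 0.791 and 1.14 CPM in the same order. Snap25 made up 17.2 and 16.4 CPM of this in Vehicle 1 and EGCG 1 and 0.518 and 0.653 in Vehicle 2 and EGCG 2, while Syt1 had at most 2 counts. The 5 endothelial and mural markers summed to 6.83, 1.84, 20.5 and 17.5 CPM. Pecam1 had the highest RPKM of them in replicate 2 (15.8 and 13.4 CPM in Vehicle 2 and EGCG 2) but had only 2 counts in one replicate 1 library and 3 in the other, and Cldn5 had 0 counts in every library, which allows up to 0.0936 CPM in EGCG 1 and less in the others. The 5 astrocyte markers summed to between 11.9 and 14.5 CPM, most of it Aldh1l1, which also had the highest RPKM. The others were not even across libraries, and 3 of 5 exceeded 3 counts in EGCG 1, where Aqp4 had 0 counts (20 in Vehicle 1, 5 in Vehicle 2 and 12 in EGCG 2) and Gfap had 2 (12, 22 and 47). The 5 oligodendrocyte markers summed to between 107.5 and 111.5 CPM, with Mbp highest by RPKM in replicate 1, Cnp highest in replicate 2 and Mog at 0 in 3 libraries. In bulk RNA, fewer cells of a type and less RNA per cell cannot be told apart.

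Levels within the list spanned a wide range. Hsp90ab1, the constitutive cytosolic HSP90, was the most abundant member at a mean of 474 RPKM and ranked 54 among the 13811 genes. Calr followed at 263 RPKM, Hspa8 at 211, Pdia3 at 210 and Hspa5 at 172. The place of Hspa8 in this order is uncertain, since a near-identical copy, described with Hspa8, also held many counts. The median of the ER chaperone genes was 42.4 RPKM, that of the cytosolic and mitochondrial genes 27.2 and that of the sensors and effectors 15.1, against 4.28 over all genes tested. The lowest members were Hspa1b at 3.18 RPKM, Hspa1a at 0.978 and Hspb1 at 0.524.

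**Figure D1:**
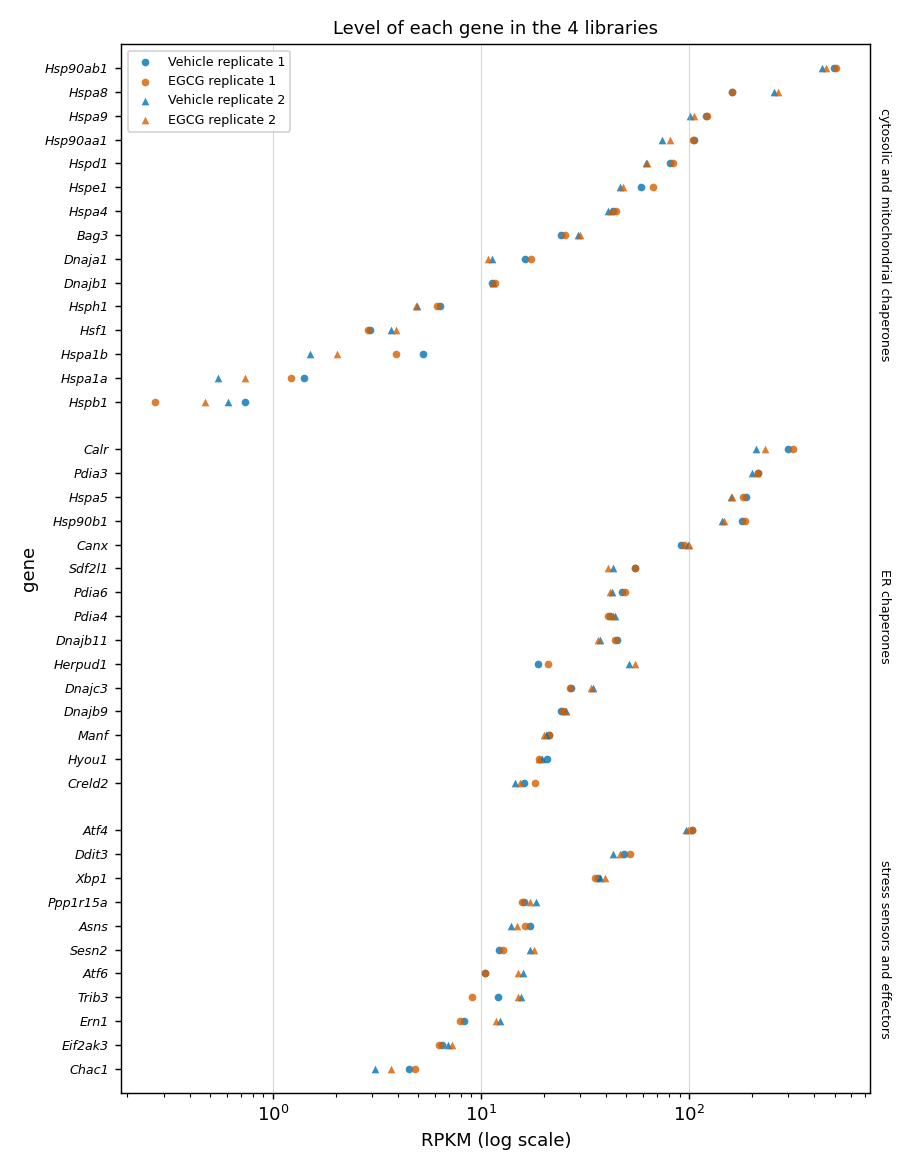
Level of each of the 41 genes as RPKM on a log axis, one row per gene and one point per library (blue Vehicle, orange EGCG; circles replicate 1, triangles replicate 2), grouped by role. Points of the same replicate mostly lie together, and the members run from 0.524 RPKM (Hspb1) to 474 RPKM (Hsp90ab1) on average.

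EGCG was set against Vehicle to ask whether the flavanol moved the stress genes. In edgeR's quasi-likelihood F test with no term besides treatment, 0 of the 41 genes had an unadjusted p under 0.05, where 0.116% of all genes tested did, and 0 had an adjusted p under 0.1, as did 0% of all genes. The replicate block in the same test gave 0 of 41 at an unadjusted p under 0.05, against 3.21% of all genes, and 0 of 41 at an adjusted p under 0.1, against 0.00724%. The Wald test of DESeq2 called 0 of 41 at an unadjusted p under 0.05 without the block, against 0.174% of all genes, and 0 of 41 with it, against 1.11%. At an adjusted p under 0.1 DESeq2 called 0 of 41 in both fits, against 0.00724% of all genes without the block and 0.0507% with it, so few genes of any kind were called at that threshold. The smallest unadjusted p of any member was 0.236 (Hspb1) in edgeR without the block and 0.0691 (Herpud1) with it. The lowest adjusted p in edgeR was 0.9999 without the block and 0.995 with it.

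The size of any difference was bounded more closely than these counts show. The median log2 fold change (EGCG over Vehicle) of the 41 genes was 0.019, and that of all genes tested was 0.011. Of the 41 members, 34 had a 95% interval lying wholly between a log2 fold change of -1 and 1, and 40 did with the replicate block, Hspb1 being the exception. With the block, the intervals of the 15 ER chaperone genes lay between -0.22 and 0.31, and those of the 11 sensors and effectors between -0.48 and 0.51. A p that misses a threshold does not show equality, and these intervals are the limits that 2 libraries a group allow.

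Directions were counted within each replicate. EGCG was higher than Vehicle in both replicates for 17 of 41 members (29.9% of all genes tested) and lower in both for 9 of 41 (20.6%), and the remaining 15 moved in opposite directions. Over all 13811 genes, the EGCG minus Vehicle differences of replicate 1 and replicate 2 had a Pearson r of -0.054. Both EGCG libraries lay above both Vehicle libraries for 0 of 41 members (6.39% of all genes) and below them for 2 of 41 (5.51%), Hspb1 and Hyou1. The median absolute log2 difference between EGCG and Vehicle was 0.050 in replicate 1 and 0.064 in replicate 2 for the members, and 0.12 and 0.10 for all genes tested, many of which had fewer counts than the members.

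**Figure D2:**
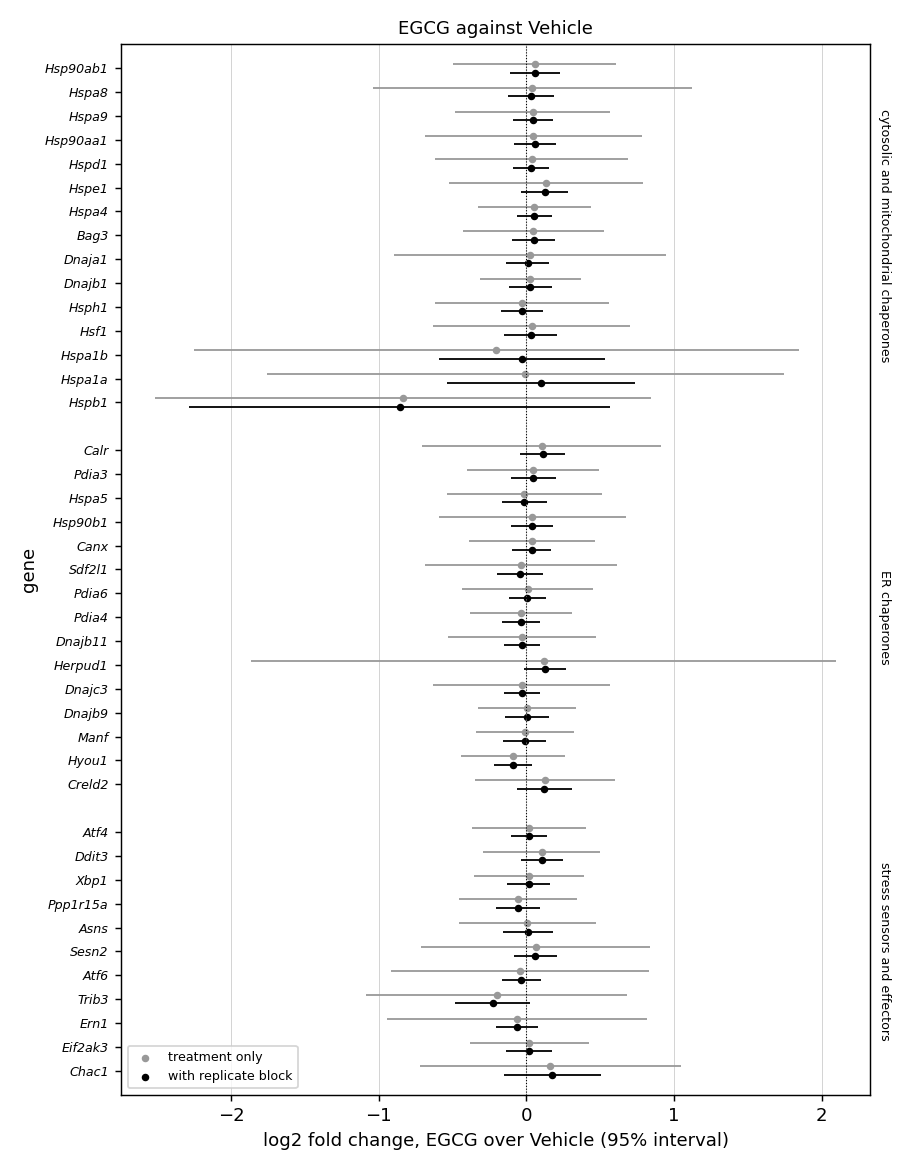
Log2 fold change of EGCG over Vehicle for each of the 41 genes in edgeR, with 95% intervals as bars, without the replicate block (grey) and with it (black). Every interval in both fits spans 0, and those of Hspb1, Hspa1b, Hspa1a and Herpud1 without the block are the widest.

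Among the cytosolic HSP70 genes, Hspa1a and Hspa1b encode the inducible form and are the usual readout of a heat shock response. Hspa1b (ENSMUSG00000090877, chr17:34956436-34959238, minus strand) had 486 counts in Vehicle 1, 349 in EGCG 1, 155 in Vehicle 2 and 313 in EGCG 2, or 14.8, 10.9, 4.23 and 5.67 CPM. EGCG was the lower arm in replicate 1 and the higher arm in replicate 2, and the groups overlapped. The fitted log2 fold change (± SE) was -0.20 ± 0.73, and -0.028 ± 0.22 with the replicate block. Hspa1a (ENSMUSG00000091971, chr17:34969190-34972156, minus strand) had 4.21 CPM in Vehicle 1, 3.62 in EGCG 1, 1.61 in Vehicle 2 and 2.18 in EGCG 2. It repeated that order of libraries, and its fitted log2 fold change was -0.0064 ± 0.63 (SE). The replicate block turned the sign of Hspa1a to 0.099 (standard error 0.25), so no direction can be given. The transcripts of the pair match at 99.2% over 2201 bases, and how reads shared by such copies were counted is not given in the sources used here, so the split between them is uncertain. Summed, the pair had 19.0 CPM in Vehicle 1, 14.5 in EGCG 1, 5.84 in Vehicle 2 and 7.85 in EGCG 2.

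Hspa8 encodes the constitutive HSC70, which folds new proteins and drives chaperone-mediated autophagy. Hspa8 (ENSMUSG00000015656, chr9:40800984-40810087, plus strand) had 692 CPM in Vehicle 1, 693 in EGCG 1, 1099 in Vehicle 2 and 1150 in EGCG 2. The EGCG and Vehicle libraries of the same replicate were close, the replicates stood apart, and the fitted log2 fold change (± SE) was 0.042 ± 0.39. The processed pseudogene Gm15459 matches Hspa8 at 99.7% over 1941 bases and was credited with 16929, 16750, 27676 and 39636 counts in the order Vehicle 1, EGCG 1, Vehicle 2 and EGCG 2. Of the counts on Hspa8 and Gm15459 together, Gm15459 held 42.7%, 43.0%, 40.7% and 38.5%. The Hspa8 level is therefore uncertain. With all 13 copies added it came to 1222, 1232, 1868 and 1881 CPM, and EGCG and Vehicle then had log2 differences of 0.012 (replicate 1) and 0.0095 (replicate 2).

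Hsp90ab1 (ENSMUSG00000023944, chr17:45567775-45573271, minus strand), a chaperone of kinases and steroid receptors, had 1485 CPM in Vehicle 1, 1529 in EGCG 1, 1302 in Vehicle 2 and 1370 in EGCG 2. The groups overlapped, at a fitted log2 fold change of 0.057 ± 0.20 (SE). Hsf1 (ENSMUSG00000022556, chr15:76477422-76501913, plus strand), the master factor of the heat shock response, had 20.8 CPM in Vehicle 1, 20.3 in EGCG 1, 26.2 in Vehicle 2 and 27.8 in EGCG 2. It too separated by replicate and not by treatment, at a fitted log2 fold change of 0.037 ± 0.24 (SE).

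Hspb1 (ENSMUSG00000004951, chr5:135887919-135889563, plus strand) encodes the small heat shock protein HSP25, which holds unfolded proteins without ATP. It had 25 counts in Vehicle 1, 9 in EGCG 1, 23 in Vehicle 2 and 27 in EGCG 2, or 0.762, 0.281, 0.627 and 0.489 CPM. Both EGCG libraries were below both Vehicle libraries after scaling, with the lowest value in EGCG 1. Its log2 fold change of -0.83 had a 95% interval from -2.51 to 0.84 (unadjusted p = 0.236 in edgeR), and no difference was detected. EGCG 1 was also the library in which the 5 stromal markers summed to 0.468 CPM against 417.7 in Vehicle 1, and their part in the Hspb1 value was not tested.

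The other cytosolic and mitochondrial members had log2 fold changes from -0.030 (Hsph1, an HSP110 exchange factor) to 0.13 (Hspe1, the mitochondrial HSP10). Hspe1 had 86.5 CPM in Vehicle 1, 99.0 in EGCG 1, 68.6 in Vehicle 2 and 71.3 in EGCG 2, and Hspd1, its HSP60 partner, had 213, 221, 164 and 166. Both were higher in EGCG within each replicate and overlapped between groups. Dnajb1, an HSP40 co-chaperone induced by heat shock, had 36.0, 37.5, 36.6 and 36.5 CPM, and Bag3, which couples HSP70 to selective autophagy, had 61.9, 65.2, 74.9 and 76.3.

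In the ER group, Hspa5 encodes BiP, the HSP70 of the ER lumen and the usual readout of the unfolded protein response. Hspa5 (ENSMUSG00000026864, chr2:34771970-34777547, plus strand) had 789.9 CPM in Vehicle 1, 763 in EGCG 1, 672 in Vehicle 2 and 683 in EGCG 2. The difference changed sign between replicates, and the fitted log2 fold change (± SE) was -0.015 ± 0.19. With the block, its 95% interval corresponded to a ratio of 0.893 to 1.10. The summed level of the ER group was 4453 CPM in Vehicle 1, 4506 in EGCG 1, 3974 in Vehicle 2 and 4099 in EGCG 2.

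Calr (ENSMUSG00000003814, chr8:84841850-84846934, minus strand), the calcium-binding lectin chaperone calreticulin, had 861 CPM in Vehicle 1, 905 in EGCG 1, 601 in Vehicle 2 and 666 in EGCG 2. EGCG was the higher arm in each replicate and the groups overlapped. The fitted log2 fold change (± SE) was 0.10 ± 0.29 (unadjusted p = 0.740 in edgeR, 0.125 with the block). Pdia3 (ENSMUSG00000027248, chr2:121413775-121438687, plus strand), the disulfide isomerase that works with calreticulin, had 669, 671, 626 and 667 CPM in the same order of libraries. Its fitted log2 fold change was 0.047 ± 0.16 (SE).

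Creld2 (ENSMUSG00000023272, chr15:88819646-88826683, plus strand), an ER stress-inducible disulfide isomerase and the member of lowest RPKM in the group, had 22.0 CPM in Vehicle 1, 24.9 in EGCG 1, 19.9 in Vehicle 2 and 20.9 in EGCG 2. EGCG was higher within each replicate, at a fitted log2 fold change of 0.13 ± 0.17 (SE). Hyou1, an HSP110-type chaperone of the ER, had 150.6 CPM in Vehicle 1, 138 in EGCG 1, 142 in Vehicle 2 and 137 in EGCG 2. Both EGCG libraries were below both Vehicle libraries by a small margin (log2 fold change -0.090, standard error 0.13). The chaperone genes Dnajb9, Manf, Pdia4, Dnajb11, Dnajc3 and Sdf2l1, often induced together in ER stress, had log2 fold changes from -0.036 (Sdf2l1) to 0.0043 (Dnajb9).

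Herpud1 (ENSMUSG00000031770, chr8:94386438-94395377, plus strand) encodes a membrane protein of ER-associated degradation. It had 1443 counts in Vehicle 1, 1574 in EGCG 1, 4392 in Vehicle 2 and 7086 in EGCG 2, or 44.0, 49.1, 119.8 and 128 CPM. The EGCG value was 11.7% above Vehicle in replicate 1 and 7.19% above it in replicate 2, and both replicate 2 libraries were far above both replicate 1 libraries. The fitted log2 fold change (± SE) was 0.12 ± 0.71 without the block and 0.13 ± 0.056 with it (unadjusted p = 0.0691 in edgeR).

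Among the sensors and effectors, Atf4 was the most abundant. Atf4 (ENSMUSG00000042406, chr15:80255184-80257541, plus strand), the factor translated when eIF2α is phosphorylated, had 244 CPM in Vehicle 1, 244 in EGCG 1, 228 in Vehicle 2 and 233 in EGCG 2. Ddit3 (ENSMUSG00000025408, chr10:127290774-127296288, plus strand), the CHOP gene downstream of it, had 83.5, 89.2, 73.8 and 80.1 CPM, higher in EGCG within each replicate and overlapping between groups. The fitted log2 fold change (± SE) was 0.017 ± 0.14 for Atf4 and 0.11 ± 0.14 for Ddit3. The total-count scaling turned the sign of Atf4, and it also turned that of Xbp1. Xbp1 (ENSMUSG00000020484, chr11:5520659-5525893, plus strand) had 119 CPM in Vehicle 1, 114 in EGCG 1, 121 in Vehicle 2 and 129 in EGCG 2, and was fitted at 0.017 ± 0.13 (log2 fold change, SE).

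Chac1, Trib3, Asns and Sesn2 are known as targets of ATF4, and none of them had an unadjusted p under 0.05 in edgeR or DESeq2, with or without the block. Chac1 (ENSMUSG00000027313, chr2:119351229-119354381, plus strand), which degrades glutathione, had 241 counts in Vehicle 1, 252 in EGCG 1, 186 in Vehicle 2 and 334 in EGCG 2, or 7.34, 7.86, 5.07 and 6.05 CPM, at a fitted log2 fold change of 0.16 ± 0.32 (SE). Trib3, a pseudokinase that restrains ATF4, had 25.7 CPM in Vehicle 1, 19.3 in EGCG 1, 33.2 in Vehicle 2 and 32.0 in EGCG 2. Trib3 was lower in EGCG within each replicate, at a log2 difference of -0.41 in replicate 1 and -0.055 in replicate 2 (unadjusted p = 0.0694 in edgeR, block included). Asns, which makes asparagine, had 46.9, 44.7, 38.1 and 40.7 CPM, and Sesn2, an inhibitor of mTORC1, had 42.4, 44.2, 60.0 and 62.7.

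Differences between the replicates were larger than those between treatments for most members. The gap between the 2 replicates exceeded every gap between treatments for 34 of 41 members, as it did for 57.1% of all genes tested. Differences between replicates were not tested and are given as values, for the Vehicle and the EGCG libraries in turn. Past a log2 difference of 1 in both arms, 1 of 41 members was higher in replicate 2 (4.31% of all genes) and 0 of 41 were lower (7.73%). That member was Herpud1, at a log2 difference of 1.44 in Vehicle and 1.39 in EGCG, or 2.72-fold and 2.61-fold.

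Hspa1b and Hspa1a were lower in replicate 2, with log2 differences of -1.80 and -1.36 in Vehicle and -0.93 and -0.72 in EGCG. In both arms, 15 of 41 members were higher in replicate 2 and 24 of 41 were lower, against 5830 and 5620 of 13811 genes. The 3 sensors of ER stress were among those higher in replicate 2. Atf6 was higher by log2 differences of 0.61 and 0.53, Ern1 by 0.58 and 0.58 and Eif2ak3 by 0.096 and 0.21. Among the other ER chaperone genes, Calr had log2 differences of -0.52 and -0.44, Hsp90b1 of -0.32 and -0.34 and Dnajc3 of 0.35 and 0.34. Summed neuronal markers (17.5, 16.7, 0.791 and 1.14 CPM in Vehicle 1, EGCG 1, Vehicle 2 and EGCG 2, mostly Snap25 in replicate 1) and summed endothelial and mural markers (6.83, 1.84, 20.5 and 17.5, mostly Pecam1 in replicate 2) differed between the replicates as well, while Cdh5 was lower in replicate 2. So did the microglial marker Csf1r, from 1195 and 1264 CPM in Vehicle 1 and EGCG 1 to 2373 and 2403 in Vehicle 2 and EGCG 2. Their part in these differences was not tested.

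**Figure D3:**
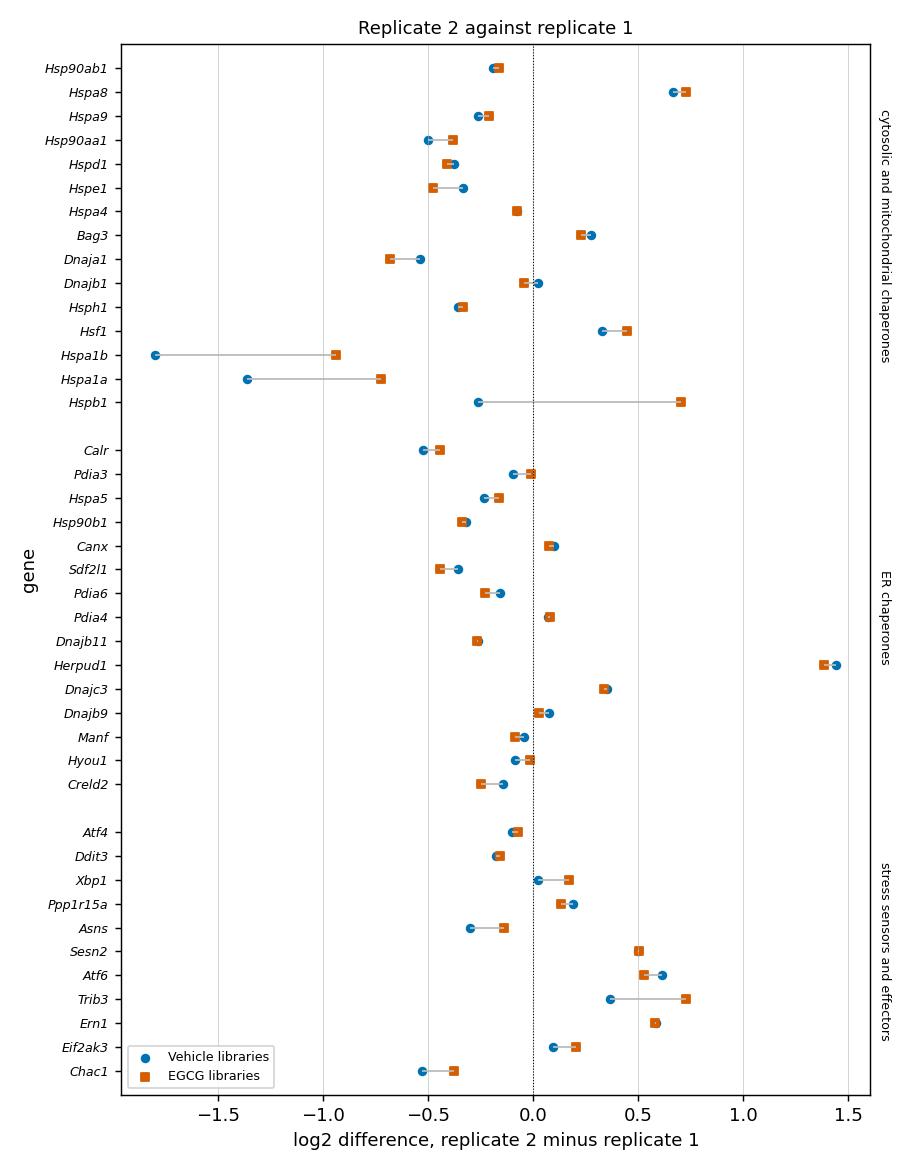
Log2 difference of replicate 2 minus replicate 1 for each of the 41 genes, in the Vehicle libraries (blue circles) and the EGCG libraries (orange squares), with a grey line joining the arms. Herpud1 lies near 1.4 in both arms, Hspa1b and Hspa1a lie lowest, and the arms lie close together for most genes.

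Other members with near-identical copies or overlapping genes carry a similar caution. A match of at least 90% over 200 bases to another gene's transcript was found for 15 of the 41 members. Besides Hspa8 and the Hspa1a pair, the copies held few counts. The copies of Dnaja1 (leaving out Smu1, which overlaps it on the opposite strand) had 259 counts in Vehicle 1 against 4631 for Dnaja1, and those of Hsp90aa1 had 226 against 13564. Hspd1 and Hspe1 lie head to head with an overlap of 112 bases on opposite strands. Manf overlaps Rbm15b by 6511 bases on the same strand. Rbm15b had 1035 counts in Vehicle 1, 1050 in EGCG 1, 1269 in Vehicle 2 and 1840 in EGCG 2. A second row named Ddit3 had 0 counts in every library.

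Promoter sequences were compared to describe the control elements that these genes share. The members were chosen for known roles in the responses that these elements serve. A higher share of an element among them is therefore not independent of the choice of genes. RefSeq promoters (GRCm38.p6, 250 bases before to 50 after the start) were given for 33 of the 41 members. The other 8 were Hspa8, Hspa9, Hsp90aa1, Hsp90ab1, Hsf1, Manf, Hyou1 and Atf6. Each motif was searched on both strands, and a match is a description of letters and not a bound site.

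The ER stress element (CCAAT, any 9 bases, CCACG), which ATF6 is known to bind together with NF-Y, was present in 7 of 13 ER chaperone promoters (Hspa5, Hsp90b1, Calr, Canx, Creld2, Dnajc3 and Pdia6). It was present in 0 of 15 windows of the cytosolic and mitochondrial group, 0 of 10 of the sensors and effectors, and 0.119% of all 32851 promoters. In Hspa5 it ran from position -65 to -47 relative to the start. The others are printed in the direction of transcription, 30 bases each from outside annotated exons, to show the spacing of the paired boxes. Capitals mark the element, which reads from CGTGG to ATTGG where it lies on the opposite strand. Hsp90b1 held another element, from position -212 to -194, that is not shown.
Hsp90b1 (chr10:86705527-86705556, minus strand): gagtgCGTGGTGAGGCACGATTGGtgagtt
Calr (chr8:84847070-84847099, minus strand): acaacgCGTGGTCGACCCTCATTGGcccat
Canx (chr11:50325794-50325823, minus strand): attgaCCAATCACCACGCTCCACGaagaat
Creld2 (chr15:88819514-88819543, plus strand): gcttctCGTGGCGAGCCTCAATTGGtccac
Dnajc3 (chr14:118937822-118937851, plus strand): cacaaCCAATCAGCGCCAACCACGacccgg
Pdia6 (chr12:17266485-17266514, plus strand): cagagaCCAATGAAAGGCGGCCACGgcgtg

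The 7 genes that share this element did not share a direction between replicates. Creld2 and Dnajc3, for example, differed by log2 values of -0.14 and 0.35 between the Vehicle libraries.

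A pair of heat shock units (GAANNTTC or TTCNNGAA), the repeat that HSF1 is known to bind, was present in 9 of 15 windows of the cytosolic and mitochondrial group, in 0 of 13 of the ER group and in 2 of 10 of the sensors and effectors, against 15.1% of all promoters. By gene, it was present in 8 of 10 of the cytosolic and mitochondrial group, against 17.0% of all genes with a promoter. These are not all separate sites. Hspd1 and Hspe1 share the same bases, and the 2 windows of Hsph1 overlap. The stretches of Hspa1a, Hspa1b and Hspb1 are shown as examples from this group, with a unit pair in capitals. Hspb1 held another pair, from position -117 to -110, that is not marked. The promoters of Hspa1a and Hspa1b match at 247 of the 250 bases before the start, and the 30 bases shown are the same.
Hspa1a (chr17:34972242-34972271, minus strand): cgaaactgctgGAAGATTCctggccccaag
Hspa1b (chr17:34959324-34959353, minus strand): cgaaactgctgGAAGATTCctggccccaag
Hspb1 (chr5:135887809-135887838, plus strand): ccagatgggggcaGAACCTTCctggccccg

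The amino acid response element (TGATGNAAN), the kind of site that ATF4 binds with a C/EBP partner, was present in Asns, Chac1, Trib3 and Herpud1 and in 3.95% of all promoters. Herpud1 and Chac1 are shown because they differed in opposite directions between replicates, by log2 values of 1.44 and -0.53 in Vehicle. Capitals mark the element, which lies on the opposite strand in both. The Herpud1 stretch lies within the antisense gene Gm15890, outside its exons.
Herpud1 (chr8:94386307-94386336, plus strand): ccacggcggGTTGCATCAgcccgcaccccc
Chac1 (chr2:119351040-119351069, plus strand): tccctgccGTTGCATCActcctgccaggtc

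Other genes of the same pathways were read in 3 wider lists. In edgeR without the block, 0 of 44 tested genes of other heat shock and co-chaperone genes, 0 of 40 other ER folding and degradation genes and 0 of 40 other integrated stress response genes had an unadjusted p under 0.05 (0.116% of all genes). With the replicate block the counts were 0, 0 and 1, against 3.21% of all genes. The 1 was Atf3, a stress-induced transcription factor named after its values were seen, with 417.8 CPM in Vehicle 1, 463 in EGCG 1, 313 in Vehicle 2 and 352 in EGCG 2 (unadjusted p = 0.0246 in the blocked edgeR test). The median log2 fold changes of the lists were 0.032, 0.028 and -0.0032. Without the block, the smallest p values among co-chaperones belonged to Hspb8 (2.41, 1.12, 0.791 and 0.707 CPM in Vehicle 1, EGCG 1, Vehicle 2 and EGCG 2) and Ptges3 (75.4, 70.3, 82.3 and 76.0). In the ER list they belonged to Mbtps2, the site-2 protease that cleaves ATF6 (46.4, 50.7, 48.5 and 53.7 CPM), and Sil1, an exchange factor of BiP (21.5, 26.0, 20.4 and 21.2). In the integrated stress response list they belonged to Slc7a3 (0.701, 0.499, 0.627 and 0.272 CPM) and Gdf15 (0.244, 0.187, 0.764 and 0.363).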

How the data were processed

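Poly-A RNA of 4 libraries was sequenced in pairs on a strand-specific protocol. The authors filtered the reads, aligned them with HISAT2 to GRCm38.p6 and deposited whole-number counts per gene, without normalization, in 1 table per replicate. The counting program, annotation release and treatment of reads that match several genes are not given in the sources used here. Gene lengths, as deposited, served for RPKM.

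Tables were joined on Ensembl identifiers, leaving out 697 and 329 loci assembled separately in each. All 41 members had the position that GENCODE M21 gives. The 13811 protein-coding genes whose counts across libraries came to 10 or more were tested in R 4.3.3 with edgeR 4.0.16 (TMM, quasi-likelihood F test, two-sided, treatment only), with Benjamini-Hochberg adjustment over all of them. DESeq2 1.42.0, other scalings, other filters, all biotypes and leaving out each library were alternatives. On simulated counts in which the replicates also differed, fitted fold changes were close to those set in every fit, but edgeR without the block called none of the changed genes at an adjusted p under 0.1, while the other fits called most of them. A prior count of 2 entered the log2 values of single libraries. Detection floors (3 counts) reflect counting error and no other error. Copies were found with BLAST 2.17.0.

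Replicate numbers of the columns came from the submission sheet in the study's supplementary material, where each number has its own table, and this pairing is the replicate block. As a check, the difference between Vehicle libraries followed that between EGCG libraries across 13811 genes (Pearson r = 0.64, with genes not being independent replicates), while the EGCG minus Vehicle differences of the replicates did not (r = -0.054). Chi-square per gene was at least 9.84 in all 6 pairs of libraries, so no library was a copy of another. Genes described in full were those with an unadjusted p under 0.05 with or without the block, the 2 of highest and the 1 of lowest RPKM in each role group, those past a log2 difference of 1 between replicates in both arms, and always Hspa1a, Hspa1b, Hsf1, Hspa5, Xbp1, Atf4 and Ddit3. From the wider lists the 2 genes of smallest p were taken. Others were named after their values were seen. Members and lists were chosen with earlier results of these data known.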

Additional observations from a re-analysis of the deposited data

How the results depend on the processing

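The count of members with an unadjusted p under 0.05 was 0 in all 12 alternatives, and so was the count with an adjusted p under 0.1, so the replicate block changed no call among the members. Over all genes the latter count was 1 with the replicate block in edgeR, 1 without it and 7 with it in DESeq2, and 0 in the other alternatives. Fits without the block called few genes of any kind, so a count of 0 members in those fits says little about the members. Of 179 recomputed log2 fold changes of the 15 genes described in full, 152 kept their sign and 27 changed it, none of them past the threshold. The count of all genes with an unadjusted p under 0.05 was 16, and became 444 with the replicate block in edgeR, 153 with the replicate block in DESeq2, 35 with all biotypes, 3 with at least 10 counts in every library, and 8 without EGCG 1, 57 without Vehicle 2 and 131 without EGCG 2. The replicate block turned the log2 fold change of Hspa1a to 0.099 in edgeR and 0.094 in DESeq2. Total counts without scaling turned Xbp1 to -0.012 and Atf4 to -0.016, moved the median of the members to -0.012 and that of all genes from 0.011 to -0.022, and split them into 18 higher and 23 lower, against 26 and 15. The cause was not tested. With at least 10 counts in every library Hspb1 left the test, and 1 member had EGCG and Vehicle libraries that did not overlap. Total counts without scaling gave 3 such members (Hspb1, Manf and Hyou1), against 2 in the main fit.

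With each library left out in turn, the lone library of an arm is assumed to vary like the others. The median of the members then ran from -0.043 to 0.091, and log2 fold changes ran over these ranges, Hspa1a -0.56 to 0.85, Hspa1b -0.86 to 0.97, Hsf1 -0.24 to 0.24, Hspa5 -0.15 to 0.11, Xbp1 -0.10 to 0.098, Atf4 -0.048 to 0.068, Herpud1 -0.77 to 1.00, Hsp90ab1 -0.053 to 0.16, Hspa8 -0.40 to 0.40, Calr -0.15 to 0.39, Pdia3 -0.016 to 0.097, Creld2 -0.0058 to 0.21, Chac1 -0.097 to 0.46, Hspb1 -1.32 to -0.50, Ddit3 0.0017 to 0.20.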

Other observations

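Past a log2 difference of 1 between the replicates in both arms, 0 of 44 other heat shock and co-chaperone genes were higher in replicate 2 and 1 was lower, 1 of 40 other ER folding and degradation genes was higher and 1 lower, and 0 of 40 other integrated stress response genes were higher and 2 lower. Over all genes tested the shares were 4.31% higher and 7.73% lower, so these counts are no result about the lists. The genes were named after their values were seen. Serp1, a stress-associated protein of the ER translocon, had 310.4 CPM in Vehicle 1, 310.2 in EGCG 1, 847 in Vehicle 2 and 775 in EGCG 2, and was thus higher in both replicate 2 libraries, as Herpud1 was. In the opposite direction, Phgdh and Slc6a9, genes of serine synthesis and glycine uptake that ATF4 is known to induce, were lower in replicate 2. Known ATF4 targets shared no direction, since Trib3 and Sesn2 were higher in replicate 2 in both arms while Asns and Chac1 were lower. Phgdh had 24.9, 22.4, 9.60 and 10.7 CPM in the same order of libraries, and Slc6a9 had 11.6, 9.77, 3.44 and 3.57. The HSP70-related Hspa12a had 64, 63, 33 and 39 counts, and Derl3, a channel protein of ER-associated degradation, had 19, 20, 6 and 4, so both rest on few counts. These differences were not tested.

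Limits concern 2 replicates a group, 1 time point and 1 dose, and RNA alone. Splicing of Xbp1, translation of Atf4 and cleavage of ATF6 were not measured here. Hspa8, Hspa1a and Hspa1b levels depend on how reads shared with copies were counted. EGCG 1 differed from Vehicle 1 in stromal markers, and the replicates differed in Snap25 and Pecam1.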
